A study of Mus musculus and Homo sapiens with 22 samples.

Results

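Mouse 4T1 mammary carcinoma cells treated with 1.25 µM ENMD-2076 for 24 h (2 libraries) were compared with 4T1 cells given DMSO, the vehicle (2 libraries, DMSO 1 and DMSO 2). These 4 of the study's 22 RNA-seq libraries were taken by their labelled line, compound and dose and by the naming of their count tables. The 4T1 line grows as aggressive, metastatic mammary tumours in mice, and all 4 libraries came from cultured cells plated 24 h before treatment, with no other agent or allele named. The remaining libraries were 10 of human MDA-MB-231 cells, 2 of 4T1 with 2.5 µM ENMD-2076, and 6 labelled 4T1 (DMSO 3, DMSO 4 and 4 with TAK901) that belonged to another naming set and were not used in the comparison. By its title, the study looked for compounds to combine with immunotherapy, and the comparison asks which genes the lower dose changed in 4T1. Doses of 1 or 2 µM stand in the growth protocol for 4T1 with ENMD-2076, and the column headers of the treated tables name no compound and give 10 µM, as do those of the tables labelled 2.5 µM. Before the 10 µM the headers carry a number, 1 in the tables labelled 1.25 µM and 2 in those labelled 2.5 µM. They do not say what that number stands for. The labelled doses were followed, and the headers leave uncertain the concentration and whether the 2 pairs differ in dose alone. The labels do not say whether the 2 libraries of a group were separate cultures, and each p then reflects only how far these libraries differ, a spread that may be technical.

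ENMD-2076 is an inhibitor of several kinases, among them Aurora kinases and growth factor receptors. Aurora A matures centrosomes and builds the spindle, and Aurora B, in the chromosomal passenger complex, corrects kinetochore attachment and drives cytokinesis. Genes of mitosis are repressed by the DREAM complex and switched on late in the cell cycle by MYBL2 and FOXM1. Many of them carry CHR and CCAAT elements. Genes of DNA replication are switched on earlier through E2F sites. Amino acid stress genes are switched on by ATF4, and interferon-response genes through ISRE elements.

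The 4 libraries held 14418492 to 30866819 gene-assigned reads, and the deepest and the shallowest were both ENMD-2076 libraries. Of 12580 genes tested, 6306 differed between the groups (50.1%; threshold 0.05 on the Benjamini-Hochberg adjusted p of edgeR's quasi-likelihood test), 3090 of them higher (24.6%) and 3216 lower (25.6%) with ENMD-2076. By more than 2-fold, 807 genes rose (6.41%) and 1023 fell (8.13%). The median log2 fold change over all genes tested was -0.0019. In 9344 genes (74.3%) the groups did not overlap, with both treated libraries above both DMSO libraries in 37.2% of genes and below them in 37.1%, and this held for each gene whose 4 library values are given below, most of which were chosen by the size of their change. Levels are given as CPM (read counts scaled to TMM-normalised library size), in the order DMSO 1 and 2, then ENMD-2076 replicates 1 and 2. With 50.1% of tested genes past the threshold, a list with about 1 in 4 members higher and 1 in 4 lower does not stand out from the background.

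Epithelial markers were found in all 4 libraries, though not each one listed. Of 24 mammary epithelial markers 16 were tested, and 6 had 0 reads in all 4 libraries. Of those tested 8 rose and 3 fell, with log2 fold changes from -4.61 to 7.18 over the list. The 7.18 is of a marker under 5 CPM in both groups, and its size is uncertain. Among markers with at least 5 CPM in the higher group the largest rise was 6.82, of Krt14. Keratins Krt8, Krt18 and Krt7 and the adhesion proteins Epcam and Cdh1 were abundant in both groups, with Krt8 at 1018 and 1027 CPM in DMSO and 926 and 893 CPM with ENMD-2076. Of 15 haematopoietic markers 3 were tested, 2 rose (Csf1r and Cd14, by 4.58 and 0.67 on the log2 scale) and 8 had 0 reads in all 4 libraries, and Ptprc, which defines leukocytes, had 4 and 2 reads in DMSO and 0 with ENMD-2076. Of 11 fibroblast markers Col3a1, Dpt, Lum and Thy1 had 0 reads, while Postn and Col1a2 rose (by 8.44 and 3.28). The gut and liver factor Hnf4a had 0 reads. The 4 Y-linked genes listed had 0 reads in each of the 4 libraries, whereas each of the 6 libraries labelled 4T1 in the other naming set held 1004 to 7021 such reads. The share of reads on mitochondrially encoded genes was 3.92 and 4.13% in DMSO and 6.21 and 7.09% with ENMD-2076.

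Promoters of some genes of the main results are shown first, because several lists below hold genes known to share promoter elements. Each stretch is from RefSeq (GRCm38.p6), runs 5′ to 3′ on the gene's strand, and ends at most 25 bases past the annotated start. Letters searched for on both strands are in capitals. For cell division, they are TTTGAA or TTCGAA (CHR) and CCAAT with its reverse complement. Cdc20 lies at chr4:118437327-118437416 on the minus strand, Ccnb2 at chr9:70421530-70421741 on the minus strand, Cenpa at chr5:30666757-30666910 on the plus strand and Aurka at chr2:172370565-172370641 on the minus strand.
Cdc20: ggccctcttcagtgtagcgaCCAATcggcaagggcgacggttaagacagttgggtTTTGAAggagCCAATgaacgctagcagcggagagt
Ccnb2: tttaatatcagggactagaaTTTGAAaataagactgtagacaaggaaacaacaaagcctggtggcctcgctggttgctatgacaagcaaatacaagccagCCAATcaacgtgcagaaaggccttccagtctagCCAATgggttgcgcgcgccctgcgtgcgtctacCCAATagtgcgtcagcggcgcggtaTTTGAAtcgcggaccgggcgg
Cenpa: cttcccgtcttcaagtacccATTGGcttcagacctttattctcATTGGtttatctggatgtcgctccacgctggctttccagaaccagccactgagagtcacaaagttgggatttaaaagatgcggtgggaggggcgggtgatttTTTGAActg
Aurka: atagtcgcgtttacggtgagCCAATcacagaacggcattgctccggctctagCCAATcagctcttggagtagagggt
The window searched ran from 250 bases before the start to 50 bases after it, and in Aurka it holds CHR letters past the end of the stretch shown. CHR letters were in 51.4% of the 109 windows of 96 genes tested in the Aurora, kinetochore, checkpoint, cytokinesis and mitotic cyclin lists, against 13.7% of the 12122 windows of 9473 genes over all genes tested. CCAAT was in 64.2% and 37.8%. It was not particular to the mitotic lists, being in 68% of the windows of cholesterol synthesis genes, which rose. Its share was 51.7% for the replication lists, 50% for the stress response and tRNA synthetase lists and 52.4% for the ERK list. For the interferon-stimulated and NF-kB lists it was 38.1% and 26.1%. These shares are descriptions of letters, not of bound sites.

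For DNA replication the letters are those of E2F sites (TTTGGCGC, TTTCCCGC, TTTCGCGC, TTTGCCGC or TTTCGCGG), shown in Mcm6, a subunit of the replicative helicase, at chr1:128359725-128359835 on the minus strand and Cdc6 at chr11:98907993-98908040 on the plus strand. In Mcm6 the first match on each strand overlaps the other.
Mcm6: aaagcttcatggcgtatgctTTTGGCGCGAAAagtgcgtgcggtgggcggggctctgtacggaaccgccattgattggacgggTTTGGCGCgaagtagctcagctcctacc
Cdc6: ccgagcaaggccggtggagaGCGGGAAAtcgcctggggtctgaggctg
They were in 37.9% of the 58 windows of 48 genes of the replication lists and in 4.50% over all genes tested. For amino acid stress the letters are the ATF4 core (TGATGCAA, TGATGAAA, TGATGTAA or TGATGGAA), shown in Asns at chr6:7693205-7693252 on the minus strand and Chac1 at chr2:119351029-119351076 on the plus strand.
Asns: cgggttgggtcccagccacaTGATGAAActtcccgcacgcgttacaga
Chac1: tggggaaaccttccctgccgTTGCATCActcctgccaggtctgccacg
They were in 28.3% of the 46 windows of 40 genes of the stress response and tRNA synthetase lists and in 2.19% over all genes tested. For the inflammatory genes that were higher with the compound, Gbp2 at chr3:142620584-142620633 on the plus strand shows the interferon-stimulated response element (ISRE), and Nfkbia at chr12:55492647-55492696 on the minus strand an NF-kB site, both in capitals.
Gbp2: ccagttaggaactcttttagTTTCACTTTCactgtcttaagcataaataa
Nfkbia: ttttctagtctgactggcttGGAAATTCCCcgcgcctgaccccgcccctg
The interferon letters were in 42.9% of the 42 windows of 33 genes of the interferon-stimulated list, against 3.01% over all genes tested. The NF-kB letters were in 39.1% of the 23 windows of 19 genes of the NF-kB list, against 1.89%. Sterol regulatory letters (TCACNCCAC or TCACNCGAC, with N any base) were in 1 of the 25 windows (4%) of 19 cholesterol synthesis genes, against 1.65%. A share from 1 window cannot be told from that background. No letters particular to the ERK list were searched for.

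Genes of cell division fell together. Aurka, the spindle pole kinase, stood at 83.6 and 66.7 CPM in DMSO and 8.79 and 8.58 CPM with ENMD-2076, and Aurkb, the kinase of the passenger complex, at 58.1 and 51.9 CPM in DMSO and 2.88 and 3.50 CPM with ENMD-2076. The levels with ENMD-2076 were 8.67-fold lower for Aurka (log2 fold change -3.12, SE 0.130, adjusted p = 9.83e-22) and 16.8-fold lower for Aurkb (log2 fold change -4.07, SE 0.159, adjusted p = 1.3e-22). Of 11 Aurora kinase and partner genes tested, 9 fell and 2 rose, with a median log2 fold change of -2.73 beside -0.0019 for all genes. The falls took in each passenger complex partner measured, Birc5 (from 85.5 to 6.56 CPM), Cdca8 (from 61.7 to 9.29 CPM) and Incenp (from 131 to 22.9 CPM). They also took in the Aurora A activators Tpx2 (from 185 to 23.3 CPM) and Bora (from 26.9 to 5.24 CPM) and the polo-like kinase Plk1 (from 85.3 to 7.13 CPM). The activators that rose, Nedd9 and Ajuba, are scaffolds of focal adhesions and cell junctions as well. Nedd9 stood at 33.4 and 36.1 CPM in DMSO and 130.5 and 138 CPM with ENMD-2076, and Ajuba rose from 94.1 to 238 CPM.

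The kinetochore joins chromosomes to microtubules, and 34 of its 35 genes tested fell (median -2.80), 30 of them by more than 2-fold. Ska1, of the complex that tracks microtubule ends, stood at 10.9 and 12.1 CPM in DMSO and 0.961 and 0.675 CPM with ENMD-2076. The microtubule-binding Ndc80 fell from 83.5 to 5.69 CPM, the mitotic motor Cenpe from 286 to 26.2 CPM and the centromeric histone Cenpa from 148 to 17.9 CPM. The smallest falls were of Zwint (log2 fold change -0.21) and Cenpo (-0.51), and Mis12 did not pass (-0.15).

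Spindle checkpoint genes and the anaphase-promoting complex (APC/C), the ubiquitin ligase that ends mitosis, were mostly lower. Of 30 tested, 21 fell and 5 rose (median -0.61). Kntc1, a checkpoint protein at kinetochores, stood at 59.1 and 60.6 CPM in DMSO and 3.43 and 3.12 CPM with ENMD-2076. Separase Espl1 fell from 64.4 to 3.91 CPM, the checkpoint kinases Bub1 from 113 to 8.40 CPM and Ttk from 56.03 to 4.93 CPM, the APC/C activator Cdc20 from 129.9 to 16.98 CPM and its ubiquitin-conjugating enzyme Ube2c from 89.6 to 8.83 CPM. Core APC/C subunits moved little: Anapc1 and Anapc5 fell (log2 fold change -0.31 and -0.30), whereas Anapc2, Anapc7, Anapc10, Anapc13 and Cdc26 rose by 0.30 to 0.57. Anapc13 stood at 19.4 and 24.8 CPM in DMSO and 33.99 and 31.7 CPM with ENMD-2076.

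Kinesins, the motors that walk on microtubules, fell more often than they rose. Kif15, a spindle motor, stood at 76.3 and 73.4 CPM in DMSO and 7.55 and 4.57 CPM with ENMD-2076, and the mitotic motors Kif11 (from 167 to 20.3 CPM), Kif2c (from 79.7 to 7.46 CPM), Kif23 (from 129 to 16.9 CPM) and Kif20a (from 98.7 to 14.5 CPM) fell. In all 18 of 34 kinesin genes tested fell and 5 rose. The cargo motors Kif3a, Kif3b, Kif1b and Kif1c did not pass, with log2 fold changes from -0.06 to 0.13. Kif5b rose by 0.18 and Kifc3, a minus-end motor of interphase cells, from 81.8 to 220.3 CPM. Kif26b had the largest rise, with 1.03 and 0.413 CPM in DMSO and 5.56 and 5.47 CPM with ENMD-2076.

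Of 33 centrosome and centriole genes, 27 fell and 3 rose (median -1.01). The centriole duplication factors Plk4 (from 85.4 to 18.8 CPM), Stil (from 21.8 to 4.72 CPM) and Sass6 (from 21.5 to 3.67 CPM) fell, and centrins Cetn2 and Cetn3 rose, with Cetn2 at 20.1 and 18.9 CPM in DMSO and 32.3 and 34.8 CPM with ENMD-2076. Condensin and cohesin genes gave 16 falls and 0 rises among 21. Ncaph, a condensin I subunit, stood at 53.4 and 56.7 CPM in DMSO and 3.98 and 5.98 CPM with ENMD-2076, while the cohesin core genes Smc1a, Smc3 and Rad21 fell by less (-0.64, -0.23 and -0.59 on the log2 scale) and Nipbl, the cohesin loader, did not pass (0.11). Among 17 cytokinesis genes 14 fell and 2 rose (median -2.81). The abscission protein Cep55 stood at 91.5 and 95.9 CPM in DMSO and 4.05 and 8.13 CPM with ENMD-2076 and the ring scaffold Anln fell from 544 to 77.8 CPM. The rises were of Rhoa and Pdcd6ip, both used outside division too, by 0.15 and 0.28.

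Mitotic cyclins, kinases and their transcription factors fell in 24 of 26 genes (median -2.81, 0 higher). Foxm1, the transcription factor of the G2 programme, stood at 104 and 101 CPM in DMSO and 11.9 and 9.64 CPM with ENMD-2076, and Mybl2, its partner in S phase, at 26.01 and 23.6 CPM in DMSO and 1.99 and 4.66 CPM with ENMD-2076. The ENMD-2076 libraries were lower than both DMSO libraries for each factor (log2 fold change -3.27, SE 0.114, adjusted p = 4.39e-24 for Foxm1, log2 fold change -2.79, SE 0.230, adjusted p = 4.93e-13 for Mybl2). Pbk, a mitotic kinase, had the largest fall, with 35.4 and 33.1 CPM in DMSO and 2.06 and 2.28 CPM with ENMD-2076. The proliferation marker Mki67 fell from 651 to 55.3 CPM, topoisomerase Top2a from 744 to 60.1 CPM, cyclin A2 (Ccna2) from 179 to 15.2 CPM, cyclin B1 (Ccnb1) from 112 to 12.8 CPM and Cdk1 from 139 to 30.9 CPM. The phosphatase Cdc25a did not pass (0.23), although Cdc25b (-2.99) and Cdc25c (-3.72) fell.

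**Figure D1:**
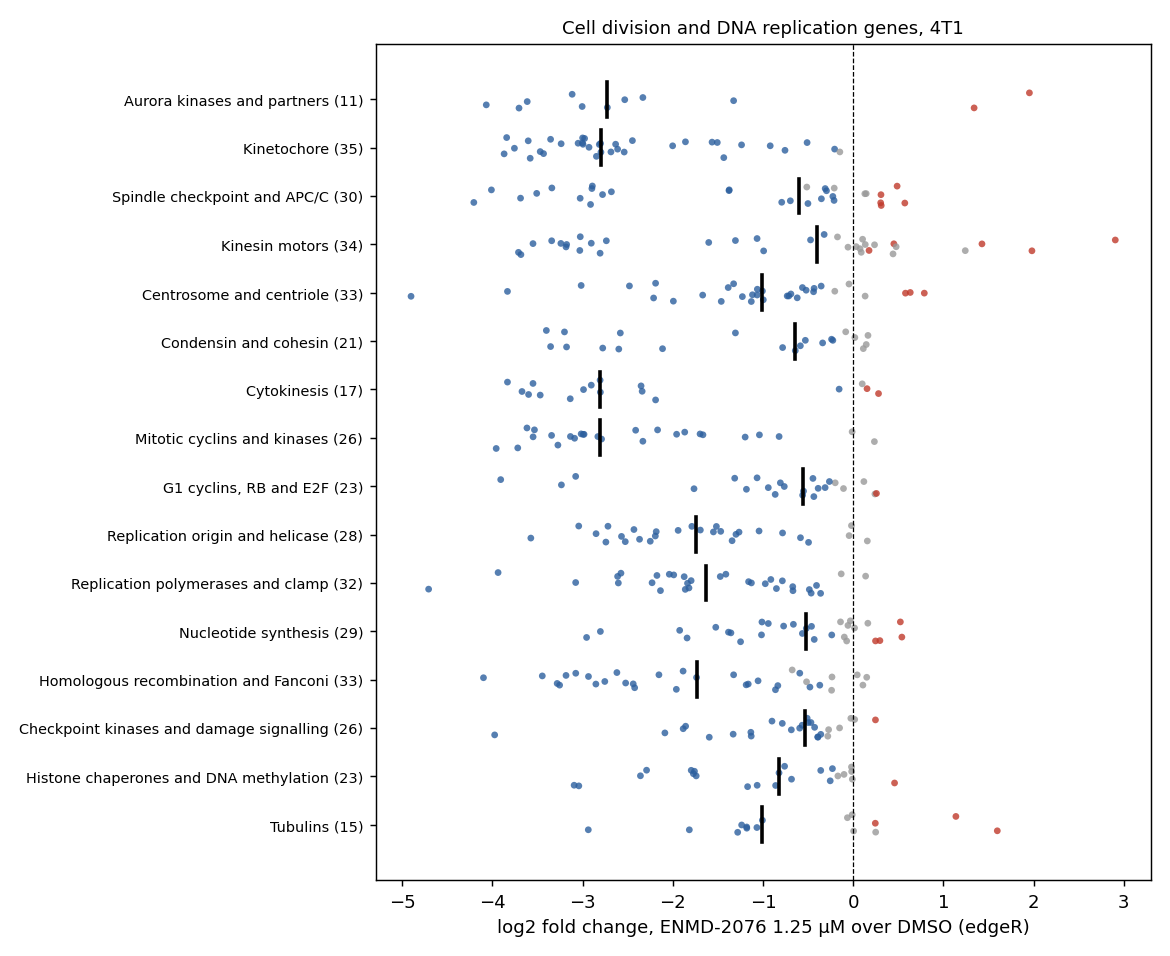
Log2 fold change (x axis, edgeR) of each tested member of 16 cell division and replication lists, with ENMD-2076 1.25 µM over DMSO, 2 libraries a group. Red points rose, blue points fell, grey points did not pass, black bars are list medians, the dashed line is the median of all genes tested, and numbers in parentheses count members tested; the kinetochore, cytokinesis and mitotic cyclin medians lie between -2.80 and -2.81.

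Most G1 regulators were lower. Ccnd1, the cyclin that answers growth signals, stood at 804 and 807 CPM in DMSO and 83.6 and 87.2 CPM with ENMD-2076, a 9.41-fold lower level (log2 fold change -3.23, SE 0.0652, adjusted p = 4.7e-31). Ccnd2 and Ccnd3 did not pass (log2 fold change -0.11 and -0.20), nor did their kinase Cdk4 (0.12). E2f1, the activator of S phase genes, stood at 28.9 and 29.4 CPM in DMSO and 23.4 and 21.4 CPM with ENMD-2076 (log2 fold change -0.39, adjusted p = 0.0143), and that fall no longer passed without either DMSO library or without ENMD-2076 replicate 2 (adjusted p from 0.057 to 0.0924). E2f8, a repressor that is itself an E2F target, stood at 60.8 and 50.9 CPM in DMSO and 4.12 and 3.47 CPM with ENMD-2076, and its relative E2f7 fell from 22.1 to 2.67 CPM. The pocket protein Rbl1 fell from 47.3 to 13.7 CPM, Rb1 did not pass (0.24), and Rbl2 stood at 44.4 and 43.8 CPM in DMSO and 54.2 and 51.4 CPM with ENMD-2076 (0.26, adjusted p = 0.0334), a call lost with DESeq2 (adjusted p = 0.0657) and in 5 other settings. In all 18 of 23 such genes fell and 1 rose (median -0.56).

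The cyclin-dependent kinase inhibitors did not rise together. Cdkn1a, which encodes p21 and is a target of p53, stood at 22.6 and 18.8 CPM in DMSO and 2.68 and 3.31 CPM with ENMD-2076 (log2 fold change -2.76, SE 0.219, adjusted p = 1.71e-13). Cdkn1b, which encodes p27, stood at 239 and 245 CPM in DMSO and 246 and 258 CPM with ENMD-2076 and did not pass (log2 fold change 0.06, SE 0.0630, adjusted p = 0.442). Cdkn2c, an inhibitor of CDK4 and CDK6, rose, with 126 and 141 CPM in DMSO and 217 and 216 CPM with ENMD-2076, whereas Cdkn2d fell from 30.7 to 5.14 CPM and Cdkn3, a phosphatase that acts on CDKs, was at 14.6 and 13.3 CPM in DMSO and 2.47 and 1.25 CPM with ENMD-2076. Cdkn2a and Cdkn2b had 0 reads in all 4 libraries.

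DNA replication genes fell with those of mitosis. Of 28 origin and helicase genes 25 fell and 0 rose (median -1.74), and of 32 polymerase and clamp genes 30 fell and 0 rose (median -1.64). Recql4, a helicase of origin firing, stood at 9.59 and 10.2 CPM in DMSO and 0.755 and 0.868 CPM with ENMD-2076. The licensing factors Cdc6 (from 14.2 to 1.75 CPM) and Cdt1 (from 123 to 21.4 CPM) fell, as did each subunit of the MCM helicase, from Mcm5 (from 102 to 14.3 CPM) to Mcm7 (from 163 to 79.02 CPM). Dscc1, a loader of the replication clamp, was among the 12 largest falls of all genes and stood at 5.37 and 4.90 CPM in DMSO and 0.0687 and 0.257 CPM with ENMD-2076. The leading strand polymerase Pole fell from 75.1 to 4.88 CPM, the clamp Pcna from 136 to 60.6 CPM and the ligase Lig1 from 54.8 to 11.7 CPM. Origin recognition genes Orc3, Orc4 and Orc5 did not pass (log2 fold changes from -0.05 to 0.16).

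Supply and repair of DNA followed. Rrm2, the small subunit of ribonucleotide reductase, stood at 50.4 and 43.2 CPM in DMSO and 5.29 and 6.53 CPM with ENMD-2076, and Tk1 (from 90.7 to 23.9 CPM) and Tyms (from 33.5 to 9.18 CPM) fell. Of 29 nucleotide synthesis genes 18 fell and 4 rose. Prps2, which makes the ribose donor, had the largest rise, with 44.1 and 46.4 CPM in DMSO and 63.2 and 67.9 CPM with ENMD-2076. Rrm2b, the p53-linked reductase subunit, did not pass (0.01). Homologous recombination and Fanconi genes fell in 26 of 33 (median -1.74, 0 higher). Fancd2, the crosslink repair protein, stood at 20.6 and 16.8 CPM in DMSO and 0.687 and 1.32 CPM with ENMD-2076. Brca1 fell from 34.9 to 3.05 CPM and Brca2 from 36.9 to 6.64 CPM. In damage signalling 20 of 26 fell. Chek1 fell from 25.3 to 7.06 CPM and Neil3, a glycosylase of dividing cells, was at 29.6 and 22.4 CPM in DMSO and 0.481 and 2.35 CPM with ENMD-2076, while Atm and Parp1 did not pass (-0.15 and -0.03). The rise of Trp53bp1, with 77.01 and 80.2 CPM in DMSO and 95.9 and 90.8 CPM with ENMD-2076, no longer passed without either DMSO library. Maintenance of chromatin through replication had 17 falls and 1 rise among 23. Uhrf1 stood at 80.04 and 71.6 CPM in DMSO and 7.21 and 9.999 CPM with ENMD-2076, the maintenance methyltransferase Dnmt1 fell from 254 to 113 CPM, and the de novo enzyme Dnmt3a rose, with 50.9 and 53.9 CPM in DMSO and 72.7 and 71.3 CPM with ENMD-2076.

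The largest changes of single genes were taken as the 12 largest rises and 12 largest falls with at least 5 CPM in the higher group. The rises were Postn, Angptl4, Krt14, Angptl7, Mmp12, Edn1, Cytip, Mgat3, Angpt1, Sema3c, Scn3a and Slc24a3. Postn, a matrix protein on chr3 (GRCm38 chr3:54361109-54391037), stood at 0.325 and 0 CPM in DMSO and 57.95 and 63.8 CPM with ENMD-2076 (log2 fold change 8.44, SE 0.275, adjusted p = 6.68e-25). Krt14, a keratin of basal epithelium (chr11, chr11:100203162-100207548), stood at 0.650 and 0.295 CPM in DMSO and 56.4 and 53.6 CPM with ENMD-2076 (log2 fold change 6.82, SE 0.224, adjusted p = 8.33e-25). Several encode secreted signals. Angptl4, a lipase inhibitor and PPAR target, had 1 read in DMSO in all and 103 and 221 with ENMD-2076, a ratio of 256 with a 95% counting interval of 45.6 to 10100. Angptl7 stood at 0.217 and 0 CPM in DMSO and 13.3 and 13.1 CPM with ENMD-2076, the endothelin precursor Edn1 at 0 and 0.295 CPM in DMSO and 11.5 and 11.9 CPM with ENMD-2076, the vascular ligand Angpt1 at 0.976 and 0.591 CPM in DMSO and 36.4 and 36.9 CPM with ENMD-2076 and the guidance cue Sema3c at 0.705 and 0.945 CPM in DMSO and 30.1 and 32.7 CPM with ENMD-2076. Mmp12, a metalloproteinase known from macrophages, had 2 reads in DMSO and 66 and 184 with ENMD-2076, a ratio of 98.7 with a 95% counting interval of 27.0 to 819. The glycosyltransferase Mgat3, which adds bisecting N-acetylglucosamine to N-glycans, stood at 0.325 and 0.650 CPM in DMSO and 24.99 and 27.7 CPM with ENMD-2076. The ion transport genes Scn3a and Slc24a3 stood at 3.20 and 3.13 CPM in DMSO and 111 and 120.2 CPM with ENMD-2076 and at 2.65 and 1.24 CPM in DMSO and 66.3 and 66.01 CPM with ENMD-2076. Cytip, an adaptor of leukocyte adhesion, stood at 0.0542 and 0.295 CPM in DMSO and 7.55 and 14.2 CPM with ENMD-2076.

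The 12 largest falls were Add2, Ankle1, Areg, Irf8, Fer1l6, Etv5, Efcab11, Etv4, Dscc1, Csn3, Eldr and Lat2. Add2, an adducin of the membrane skeleton (chr6, chr6:86028681-86124409), had 102 and 88 reads in DMSO and 2 and 0 with ENMD-2076, a ratio of 120.0 with a 95% counting interval of 32.9 to 1000. Ankle1, a nuclease that acts on unresolved DNA bridges, stood at 12.6 and 11.2 CPM in DMSO and 0.137 and 0.161 CPM with ENMD-2076. Areg, an EGF receptor ligand (chr5, chr5:91139599-91148432), stood at 14.8 and 11.8 CPM in DMSO and 0.275 and 0.289 CPM with ENMD-2076 (log2 fold change -5.52, SE 0.368, adjusted p = 1.38e-15), and the transcription factors Etv5 and Etv4, targets of receptor and ERK signalling, at 76.3 and 63.97 CPM in DMSO and 2.20 and 2.25 CPM with ENMD-2076 and at 96.6 and 89.1 CPM in DMSO and 4.05 and 3.12 CPM with ENMD-2076. Irf8, an interferon regulatory factor of myeloid cells, stood at 16.96 and 15.3 CPM in DMSO and 0.618 and 0.322 CPM with ENMD-2076, and Csn3, a milk casein, at 10.4 and 10.4 CPM in DMSO and 0.0687 and 0.611 CPM with ENMD-2076. Fer1l6 stood at 52.95 and 48.9 CPM in DMSO and 1.03 and 1.64 CPM with ENMD-2076, Efcab11 at 11.7 and 10.3 CPM in DMSO and 0.206 and 0.450 CPM with ENMD-2076, the adaptor Lat2 at 15.2 and 15.6 CPM in DMSO and 0.961 and 0.450 CPM with ENMD-2076, and Eldr, a long non-coding RNA beside Egfr, at 8.45 and 5.32 CPM in DMSO and 0.137 and 0.354 CPM with ENMD-2076. In Dscc1 and Csn3 the first treated library had 1 read each.

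**Figure D2:**
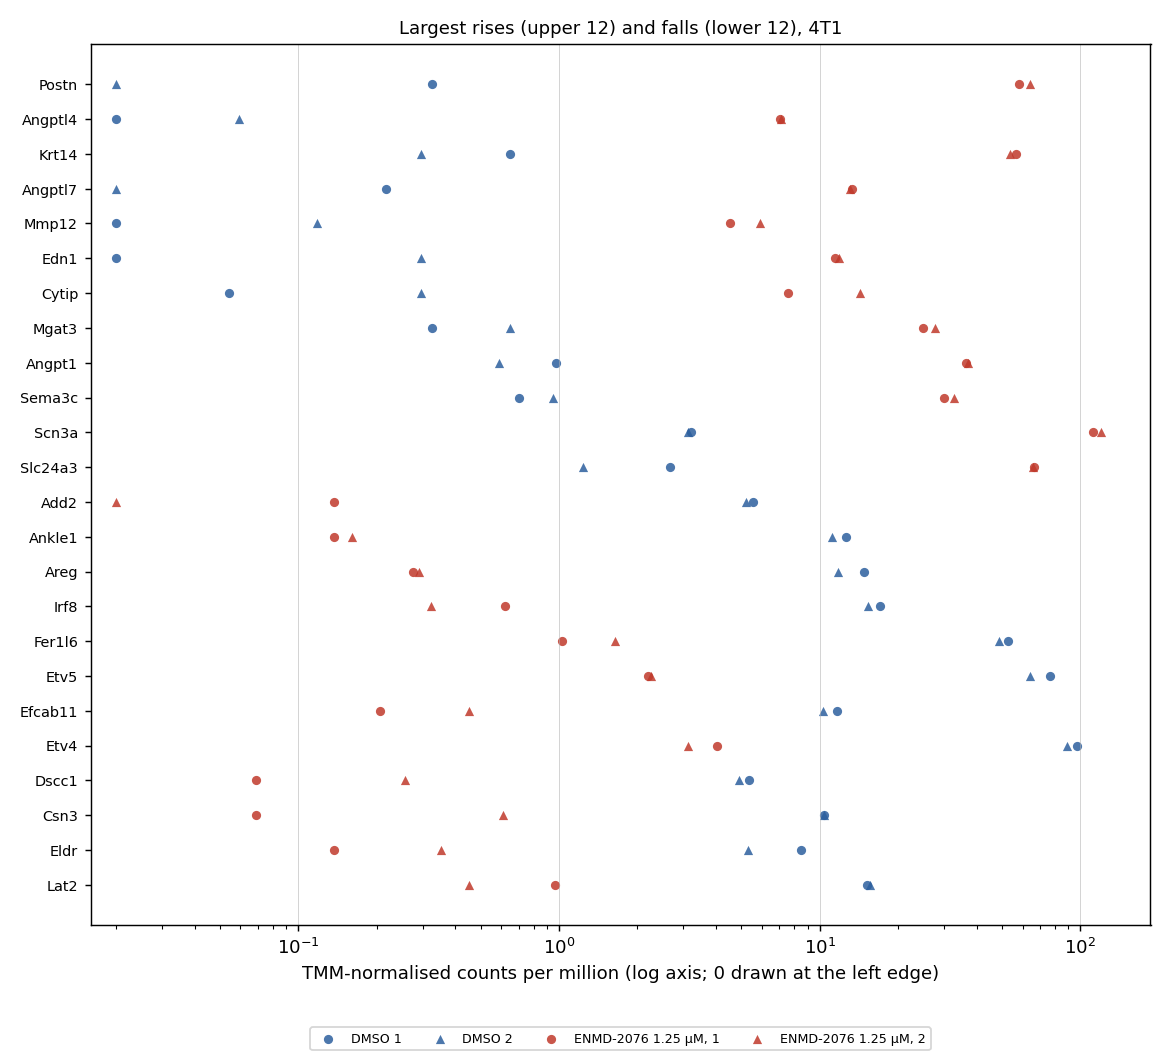
TMM-normalised CPM on a log axis (x) of the 12 largest rises and 12 largest falls (y) in each of the 4 libraries, DMSO in blue and ENMD-2076 1.25 µM in red, circles for replicate 1 and triangles for replicate 2. The genes were chosen for the size of their change, so the gap between the groups in all 24 follows from that choice (74.3% of all genes tested show one), and values of 0 are drawn at the left edge.

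Genes that answer ERK signalling fell. ERK is the kinase below RAS and growth factor receptors, and its feedback inhibitors (DUSP, SPRY and SPRED proteins) and ETS factors are known readouts. Of 27 tested, 24 fell and 0 rose (median -1.75), 21 by more than 2-fold. Beyond Areg, Etv4, Etv5 and Ccnd1, the falls took in the phosphatases Dusp6 (from 245 to 35.3 CPM), Dusp4 (from 232 to 87.8 CPM) and Dusp5 (from 20.9 to 5.09 CPM), the inhibitors Spry4 (from 15.7 to 0.793 CPM) and Spred2 (from 96.9 to 27.1 CPM), and the AP-1 subunit Fosl1 (from 90.6 to 10.3 CPM). Myc stood at 275 and 269 CPM in DMSO and 153 and 146 CPM with ENMD-2076 (log2 fold change -0.87, SE 0.0654, adjusted p = 4.84e-14). Spry1, Junb and Fos did not pass (-0.04, 0.14 and 0.98).

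Receptor tyrosine kinases themselves were mixed, with 9 higher and 11 lower of 24. Epha2, an ephrin receptor and known ERK target, stood at 451 and 434 CPM in DMSO and 80.1 and 71.6 CPM with ENMD-2076. Csf1r, the receptor of macrophage colony-stimulating factor, had the largest rise, with 0.108 and 0.827 CPM in DMSO and 8.93 and 12.9 CPM with ENMD-2076, and its ligand Csf1 rose from 87.6 to 259.9 CPM. Met rose from 132 to 247 CPM, Erbb2 from 73.95 to 98.5 CPM and Ephb6 from 23.4 to 134 CPM, while Flt1, a VEGF receptor, fell from 34.8 to 19.4 CPM and Fgfr2, Igf1r and Insr did not pass (-0.07, -0.22 and -0.10). Among ligands 9 of 21 rose and 7 fell. The EGF family ligands Hbegf and Tgfa fell from 81.04 to 24.4 CPM and from 86.0 to 43.05 CPM, as did Vegfa (from 110.4 to 46.8 CPM). The PDGF genes Pdgfb (from 18.2 to 56.98 CPM) and Pdgfc rose, Pdgfc standing at 1.84 and 4.61 CPM in DMSO and 34.7 and 31.1 CPM with ENMD-2076.

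The integrated stress response, in which ATF4 raises amino acid supply and proapoptotic regulators, was lower. Of 28 genes 26 fell and 1 rose (median -1.81). Trib3, a pseudokinase that dampens the response, stood at 129.9 and 132 CPM in DMSO and 6.18 and 5.69 CPM with ENMD-2076 (log2 fold change -4.48, SE 0.113, adjusted p = 2.54e-28). Asparagine synthetase Asns stood at 404 and 388 CPM in DMSO and 38.04 and 39.6 CPM with ENMD-2076, and Chac1, which degrades glutathione, fell from 59.7 to 5.87 CPM. Atf4 itself fell from 376 to 119 CPM, and Ddit3, which encodes CHOP, from 87.7 to 17.8 CPM. The exception was Nupr1, a stress-induced chromatin protein, which stood at 156 and 181 CPM in DMSO and 362 and 306 CPM with ENMD-2076.

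Serine, glycine and folate genes, many of them ATF4 targets, fell in 14 of 19 and rose in 0. Mthfd2, the mitochondrial folate enzyme, stood at 134 and 126 CPM in DMSO and 6.80 and 8.36 CPM with ENMD-2076, and the serine pathway enzymes Psat1 (from 495 to 76.4 CPM), Psph (from 74.9 to 23.6 CPM), Phgdh (from 369 to 162 CPM) and Shmt2 (from 382 to 66.9 CPM) fell. Of 22 tRNA synthetase genes 19 fell and 0 rose (median -0.95), with Cars, the cysteine enzyme, at 196 and 210.4 CPM in DMSO and 42.8 and 36.6 CPM with ENMD-2076. The histidine enzyme Hars and the phenylalanine subunit Farsa did not pass (-0.03 and 0.02). Of 21 amino acid transporters tested 10 fell and 3 rose. The cystine carrier Slc7a11 stood at 64.4 and 56.4 CPM in DMSO and 7.14 and 6.37 CPM with ENMD-2076, and the leucine carrier Slc7a5 fell from 200.3 to 40.5 CPM, against Slc43a2, another carrier of large neutral amino acids, at 10.7 and 10.2 CPM in DMSO and 70.2 and 67.8 CPM with ENMD-2076.

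Chaperones of the endoplasmic reticulum did not follow. Hspa5, which encodes BiP, did not pass (1102 and 1068 CPM as group means, log2 fold change -0.04), nor did Xbp1 (-0.18), and the list had 4 higher and 7 lower of 24. The sensor Ern1 stood at 158 and 145 CPM in DMSO and 70.5 and 73.2 CPM with ENMD-2076 and Calr, a lectin chaperone, at 226 and 250.1 CPM in DMSO and 509.8 and 510.1 CPM with ENMD-2076. NRF2 targets, the antioxidant genes, had 12 higher and 6 lower of 25, with Nqo1 from 8.12 to 12.5 CPM among those that rose and Hmox1 not passing (0.31). Heat shock genes gave 7 higher and 14 lower of 27 (8 lower without DMSO 1), from Hsph1 at 264 and 263 CPM in DMSO and 119 and 122 CPM with ENMD-2076 to the small chaperone Cryab at 3.85 and 4.02 CPM in DMSO and 31.4 and 28.97 CPM with ENMD-2076.

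Machinery of protein synthesis was lower by small amounts. Of 78 cytosolic ribosomal protein genes 73 fell and 2 rose (median -0.50), and 0 of them by more than 2-fold, the largest fall being Rpl18 (-0.96). Many of these genes have near-identical pseudogenes, and their counts are uncertain where reads could be split. Nucleolar and Myc-linked genes fell in 25 of 38 (median -0.32). The rise was of Mxd4, an antagonist of Myc, at 74.8 and 70.5 CPM in DMSO and 183 and 166 CPM with ENMD-2076, and Mxd3, the family member of S phase, stood at 7.26 and 4.55 CPM in DMSO and 0.412 and 0.514 CPM with ENMD-2076. Mitochondrial ribosomal proteins had 9 higher and 9 lower of 73 (median -0.0081), below the background share of calls in both directions. Without DMSO 1 or without ENMD-2076 replicate 1, 5 rose.

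**Figure D3:**
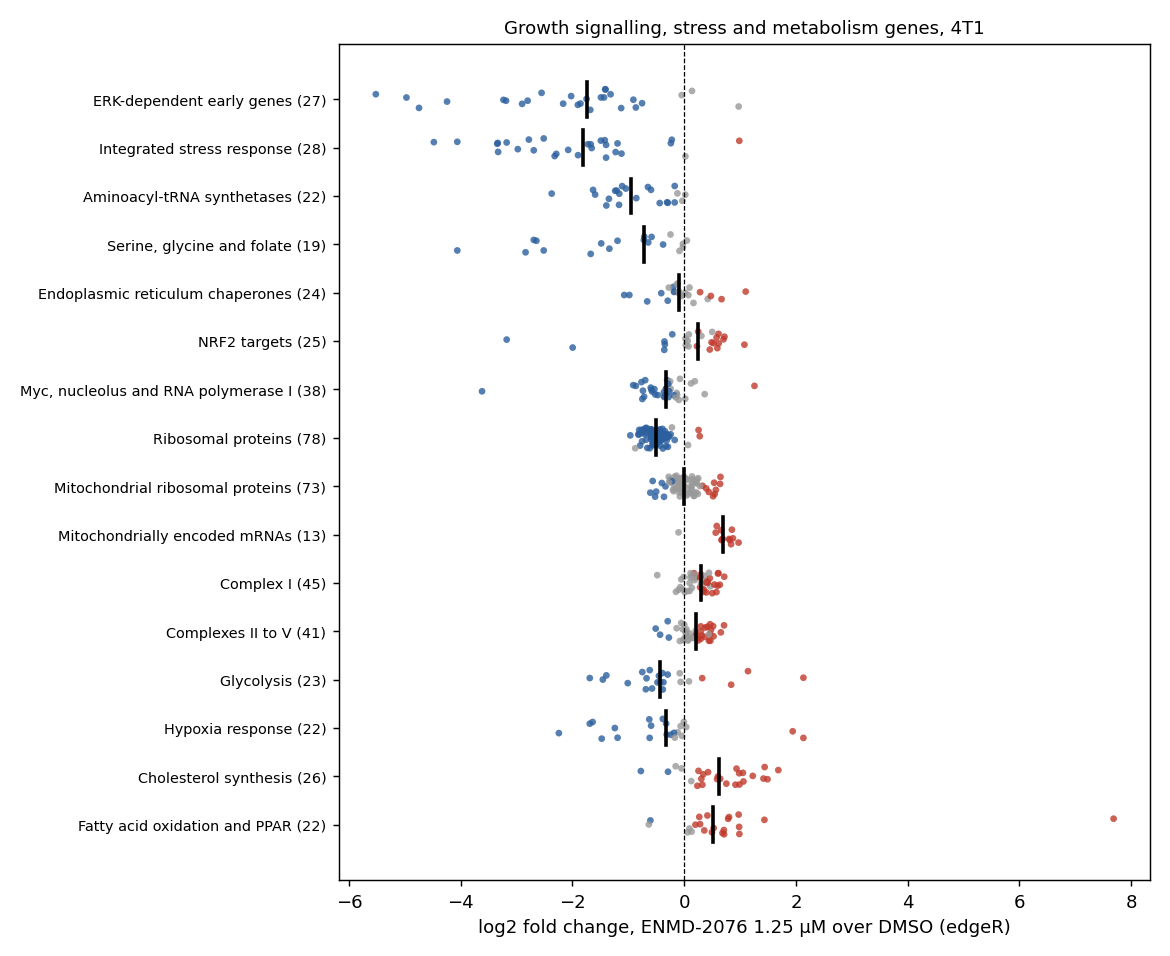
Log2 fold change (x axis, edgeR) of each tested member of 16 growth signalling, stress and metabolism lists, with ENMD-2076 1.25 µM over DMSO, 2 libraries a group. Red points rose, blue points fell, grey points did not pass, black bars are list medians, the dashed line is the median of all genes tested, and numbers in parentheses count members tested; the ERK and integrated stress response medians lie at -1.75 and -1.81 and the cholesterol synthesis median at 0.62.

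Genes of respiration that passed were mostly higher, and glycolytic genes mostly lower. Of 13 mitochondrially encoded mRNAs 12 rose and 0 fell (median 0.69). Nuclear complex I genes rose in 22 of 45 and fell in 0, by less than 2-fold each, with Ndufb7 the largest at 33.6 and 33.9 CPM in DMSO and 61.5 and 50.2 CPM with ENMD-2076. Complexes II to V gave 19 rises, such as Atp5k (from 44.8 to 73.5 CPM), and 4 falls, such as Sdhb (from 124 to 87.2 CPM), of 41. Glycolytic genes fell in 16 of 23 and rose in 4 (median -0.43). The glucose carrier Slc2a1 stood at 129 and 133 CPM in DMSO and 42.5 and 39.2 CPM with ENMD-2076, and pyruvate kinase Pkm (from 3627 to 2254 CPM) and Ldha (from 779 to 523 CPM) fell. Pfkfb3, which makes the allosteric activator of phosphofructokinase, rose, with 8.35 and 6.62 CPM in DMSO and 30.4 and 35.2 CPM with ENMD-2076, and so did Pdk2, a brake on pyruvate oxidation, with 5.04 and 4.96 CPM in DMSO and 19.8 and 18.5 CPM with ENMD-2076. Hypoxia response genes fell in 14 of 22, with the oxygen sensor Egln3 at 115 and 118 CPM in DMSO and 24.9 and 24.4 CPM with ENMD-2076, and Hif1a did not pass (-0.01).

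Cholesterol synthesis rose in 21 of 26 genes and fell in 2 (median 0.62). Hsd17b7, a late enzyme, stood at 22.1 and 26.6 CPM in DMSO and 77.5 and 78.8 CPM with ENMD-2076. The entry enzyme Hmgcs1 rose from 203 to 542 CPM, Idi1 from 107 to 290.3 CPM and squalene epoxidase Sqle from 229.8 to 479.7 CPM. Among the falls was Insig1, which retains the SREBP activator in the endoplasmic reticulum, with 489.5 and 490.1 CPM in DMSO and 283 and 289 CPM with ENMD-2076, while Srebf2 did not pass (-0.05). The list of fatty acid oxidation genes with PPAR receptors and targets rose in 17 of 22 genes and fell in 1 (median 0.51). Cpt1a, which admits fatty acids to mitochondria, rose from 86.1 to 233 CPM, the dehydrogenase Acadl from 120.0 to 236 CPM and Etfdh from 43.99 to 86.8 CPM, and the fall was of Ppard, with 89.9 and 81.9 CPM in DMSO and 56.9 and 56.2 CPM with ENMD-2076. Fatty acid synthesis had 7 higher and 4 lower of 20, with synthase Fasn rising by 0.39 and the desaturase Scd1 and the regulator Srebf1 falling (-0.27 and -0.51 on the log2 scale). The citric acid cycle list had 7 higher and 4 lower of 24, among them citrate synthase Cs (-0.27) and Pdp1, which activates pyruvate dehydrogenase (-0.75), on the lower side. Lysosome and autophagy genes had 17 higher and 5 lower of 35 (11 higher without DMSO 1), with Atp6v0d1, of the proton pump, at 69.4 and 76.2 CPM in DMSO and 136 and 132 CPM with ENMD-2076 and the protease Ctsl falling from 2375 to 909.9 CPM.

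Immune genes bear on the study's stated interest. Antigen presentation on MHC class I rose in 16 of 27 genes and fell in 2 (median 0.50). Psmb10, a catalytic subunit of the immunoproteasome, stood at 12.2 and 13.1 CPM in DMSO and 71.9 and 57.6 CPM with ENMD-2076 (log2 fold change 2.35, SE 0.128, adjusted p = 3.65e-18), and its partner Psmb8 rose from 13.8 to 35.4 CPM. The immunoproteasome activator genes Psme1 and Psme2 rose from 49.1 to 119 CPM and from 52.2 to 135 CPM. The peptide-loading genes Tapbp (from 168 to 464 CPM), Tap2 (from 32.7 to 63.97 CPM) and the trimming peptidase Erap1 (from 28.9 to 67.9 CPM) rose, but Tap1 did not pass (-0.09). The class I chains moved less: B2m rose from 458 to 648 CPM and H2-K1 and H2-D1 by 0.23 and 0.21 on the log2 scale. H2-Q7 was at 7.53 and 6.03 CPM in DMSO and 3.50 and 1.93 CPM with ENMD-2076 and H2-Q6 also fell, but class I genes of that cluster are near-identical and their counts uncertain. Nlrc5, the class I transactivator, did not pass (0.01). Over all 46 proteasome genes 24 rose and 1 fell (median 0.19), the fall being of Psmd9 with 36.1 and 32.4 CPM in DMSO and 26.02 and 25.7 CPM with ENMD-2076, a call lost without DMSO 1 (adjusted p = 0.114).

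Interferon-stimulated genes rose in 29 of 43 tested and fell in 2 (median 0.73). Gbp2, a guanylate-binding protein, stood at 8.35 and 6.08 CPM in DMSO and 61.7 and 69.3 CPM with ENMD-2076 (log2 fold change 3.18, SE 0.140, adjusted p = 5.21e-21), and Uba7, the ISG15-activating enzyme, rose from 7.58 to 46.2 CPM, Parp14 from 38.7 to 114 CPM and Gbp3 from 3.38 to 18.5 CPM. Oasl1 fell, with 15.9 and 14.1 CPM in DMSO and 1.65 and 4.02 CPM with ENMD-2076, and Rsad2, Oas1a and Oas3 did not pass (-0.90, 0.08 and 0.08). Signalling genes rose in 13 and fell in 4 of 25. Irf1 rose from 47.9 to 119 CPM, Stat2 from 38.8 to 62.9 CPM and Jak2 from 106 to 211 CPM, and Tlr3, the sensor of double-stranded RNA, stood at 49.8 and 46.5 CPM in DMSO and 129 and 147 CPM with ENMD-2076. Among the falls were the feedback inhibitor Socs3, at 23.7 and 23.3 CPM in DMSO and 5.01 and 4.89 CPM with ENMD-2076, and the DNA sensor Cgas (from 13.7 to 4.98 CPM), whereas Irf3, Irf9 and Irf7 did not pass (-0.05, 0.04 and 0.55).

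NF-kB feedback and target genes rose in 16 of 23 and fell in 3 (median 0.48). The inhibitor Nfkbia rose from 49.1 to 98.2 CPM, Tnfaip3, which encodes A20, from 92.4 to 186 CPM, and Bcl3, with 2.76 and 1.83 CPM in DMSO and 5.63 and 5.27 CPM with ENMD-2076, had the largest rise at this level. Tnfaip2 fell, with 355 and 357 CPM in DMSO and 85.1 and 75.3 CPM with ENMD-2076. STAT3 targets had 5 higher and 5 lower of 18. Stat3 rose from 101 to 137 CPM and its receptor chains Il6st and Osmr from 156 to 308 CPM and from 14.5 to 29.6 CPM, against falls of Socs3 and the kinase Pim3 (from 86.8 to 33.9 CPM), and the AP-1 subunit Fosl2 rose, with 102 and 111 CPM in DMSO and 439 and 467 CPM with ENMD-2076.

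Chemokines and cytokines did not move one way. Of 40 listed, 21 were tested, 7 rose and 11 fell (7 without DMSO 1), and 10 had 0 reads in all 4 libraries. Ccl5, which attracts T cells, stood at 2.00 and 0.768 CPM in DMSO and 3.85 and 5.02 CPM with ENMD-2076 (log2 fold change 1.67, SE 0.425, adjusted p = 0.00118). The neutrophil chemokines Cxcl5 and Cxcl3 rose, Cxcl5 from 28.8 to 177 CPM and Cxcl3 with 1.46 and 1.95 CPM in DMSO and 9.75 and 12.2 CPM with ENMD-2076, and Il18 rose from 3.97 to 19.4 CPM. Tslp, an epithelial cytokine, fell, with 196 and 214 CPM in DMSO and 36.2 and 40.7 CPM with ENMD-2076, as did the granulocyte factor Csf3 (from 98.7 to 47.7 CPM). Il1a and Il1b fell too, both under 3 CPM in each library. Cxcl11 did not pass (-0.17).

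Of 13 checkpoint ligands tested 6 rose (3 without DMSO 2) and 4 fell. Cd274, which encodes PD-L1, stood at 2.00 and 1.65 CPM in DMSO and 3.09 and 3.21 CPM with ENMD-2076. Both treated libraries were above both DMSO libraries, but the difference did not pass (log2 fold change 0.78, SE 0.435, adjusted p = 0.134), and it passed in the fit of all 12 libraries labelled 4T1 (0.79, adjusted p = 0.0317), 6 of which hold the Y-linked reads given above. Vsir, which encodes VISTA, stood at 12.8 and 13.1 CPM in DMSO and 31.6 and 27.01 CPM with ENMD-2076, Lgals9 rose from 14.5 to 27.5 CPM, and Cd276 from 65.8 to 102 CPM. The poliovirus receptor gene Pvr, a ligand of TIGIT and of the NK cell receptor DNAM-1, fell, with 147 and 147 CPM in DMSO and 42.2 and 44.1 CPM with ENMD-2076, and the ecto-nucleotidase Nt5e, which makes adenosine, fell from 276 to 119 CPM. Of 7 NK cell receptor ligands 4 fell and 1 rose, with Ulbp1, a ligand of NKG2D, falling from 13.2 to 5.28 CPM.

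**Figure D4:**
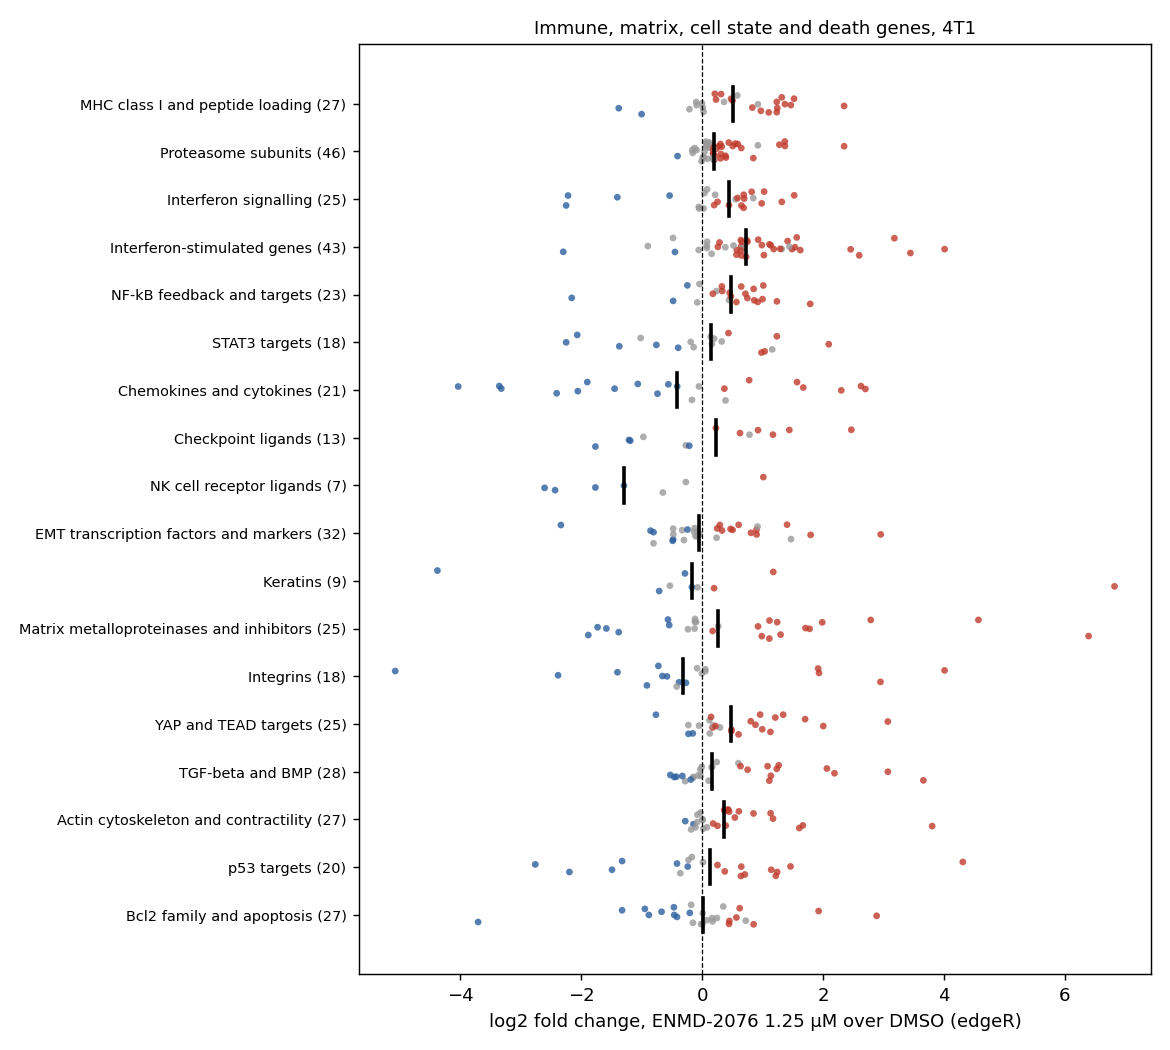
Log2 fold change (x axis, edgeR) of each tested member of 18 immune, matrix, cell state and death lists, with ENMD-2076 1.25 µM over DMSO, 2 libraries a group. Red points rose, blue points fell, grey points did not pass, black bars are list medians, the dashed line is the median of all genes tested, and numbers in parentheses count members tested; the interferon-stimulated median lies at 0.73 and the chemokine members reach both sides of 0.

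Epithelial and mesenchymal genes moved gene by gene. Vim, the mesenchymal intermediate filament, stood at 2191 and 2235 CPM in DMSO and 459 and 418 CPM with ENMD-2076 (log2 fold change -2.34, SE 0.0589, adjusted p = 2.63e-28), and fibronectin Fn1 fell from 4889 to 2705 CPM. Cdh1, which encodes E-cadherin, rose from 424 to 789.7 CPM and the splicing regulator Esrp2 from 38.4 to 71.7 CPM, while Epcam and Snai1 did not pass (-0.11 and -0.48). Pkp1, a desmosomal plakophilin, had the largest rise at this level, with 10.8 and 10.6 CPM in DMSO and 29.2 and 27.5 CPM with ENMD-2076. Over the list 12 of 32 rose and 6 fell. Among 9 keratins tested, of 50 listed, 3 rose and 4 fell (2 without a filter on low counts, and 1 without either DMSO library). Beside Krt14, the simple-epithelial Krt18 fell, with 1408 and 1426 CPM in DMSO and 872 and 859.8 CPM with ENMD-2076. Trp63, which encodes the basal factor p63, had 0 reads in DMSO and 0.878 CPM on average with ENMD-2076, under the 5 CPM asked of genes with library values.

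Matrix remodelling genes rose more often than they fell, with 13 higher and 6 lower of 25. The membrane protease Mmp14 rose from 104 to 358 CPM, Mmp15 from 5.44 to 37.8 CPM, the collagenase Mmp13 from 5.17 to 20.5 CPM and the inhibitor Timp2 from 498 to 1078 CPM, whereas Mmp9 did not pass (-0.23). The urokinase receptor Plaur fell from 72.03 to 27.9 CPM and the protease inhibitor Serpine2 stood at 18.9 and 23.9 CPM in DMSO and 5.63 and 7.04 CPM with ENMD-2076. Collagen chains had 7 higher and 5 lower of 22, from Col18a1, at 332 and 339.9 CPM in DMSO and 131 and 118 CPM with ENMD-2076, to Col12a1, at 2.17 and 2.66 CPM in DMSO and 30.7 and 27.4 CPM with ENMD-2076. Integrins had 4 higher and 9 lower of 18, with the beta chains Itgb5 (from 124 to 473 CPM) and Itgb6 rising, Itgb6 with 2.44 and 3.25 CPM in DMSO and 18.9 and 24.7 CPM with ENMD-2076, and the alpha chains Itga3 (from 2130 to 1131 CPM) and Itga8 falling, Itga8 with 49.6 and 45.5 CPM in DMSO and 10.8 and 7.88 CPM with ENMD-2076.

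Postn and Col1a2 are also fibroblast markers and Csf1r a macrophage marker. Of 11 fibroblast markers 3 were tested, 2 rose and 1, Pdgfra, fell (from 40.2 to 25.97 CPM), while Col3a1, Lum and Thy1 stayed at 0 reads in all 4 libraries. The summed CPM, without TMM factors, of the whole fibroblast list was 38.1 and 44.4 CPM in DMSO and 84.9 and 95.5 CPM with ENMD-2076, and that of the haematopoietic list was 18.9 and 20.6 CPM in DMSO and 36.2 and 40.1 CPM with ENMD-2076.

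Targets of YAP and TEAD, which answer cell shape and tension, rose in 16 of 25 and fell in 3 (median 0.48). Ccn1 rose from 55.6 to 181 CPM, Ankrd1 from 168 to 326 CPM and Amotl2 from 80.5 to 187 CPM, and the coactivator gene Wwtr1, which encodes TAZ, fell, with 308 and 298 CPM in DMSO and 172 and 184 CPM with ENMD-2076. In the TGF-beta and BMP list 11 of 28 rose and 5 fell. The ligand Tgfb2 stood at 2.76 and 1.65 CPM in DMSO and 18.4 and 19.03 CPM with ENMD-2076, the receptor Tgfbr2 rose from 134 to 322 CPM, the latent-complex activator Thbs1 from 378 to 1721 CPM and the inhibitor Pmepa1 from 108 to 229 CPM, while Tgfb1 did not pass (-0.28) and the signal transducer Smad3 fell, with 209 and 209.7 CPM in DMSO and 150.2 and 141 CPM with ENMD-2076. Actin and contractility genes rose in 16 of 27 and fell in 2 (median 0.36), with tropomyosins Tpm1 (from 386 to 1177 CPM) and Tpm2, at 3.52 and 3.13 CPM in DMSO and 50.3 and 43.2 CPM with ENMD-2076, among the rises. The fall of Srf, with 80.97 and 80.6 CPM in DMSO and 72.1 and 61.7 CPM with ENMD-2076, no longer passed without either DMSO library or without ENMD-2076 replicate 2.

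Targets of p53 moved in both directions. Of 20 tested 10 rose and 6 fell (median 0.13). The death receptor Fas stood at 3.20 and 2.60 CPM in DMSO and 58.9 and 56.8 CPM with ENMD-2076 (log2 fold change 4.31, SE 0.160, adjusted p = 2.81e-23) and the desmosomal apoptosis effector Perp rose from 230.5 to 635 CPM, against falls of Cdkn1a, of Plk3 (from 66.97 to 14.7 CPM) and of the BH3-only gene Bbc3 (from 32.9 to 13.3 CPM), and Mdm2 did not pass (-0.17). Among Bcl2 family and apoptosis genes 7 of 27 rose and 9 fell. Bmf, a BH3-only protein tied to the cytoskeleton, stood at 31.3 and 30.4 CPM in DMSO and 229 and 228 CPM with ENMD-2076, and Mcl1, an anti-apoptotic member, fell from 273 to 198 CPM. Bcl2l11, which encodes Bim, and Bcl2l1, which encodes Bcl-xL, did not pass (0.00 and -0.18). Birc5, the inhibitor shared with the passenger complex, stood at 86.7 and 84.4 CPM in DMSO and 6.59 and 6.53 CPM with ENMD-2076.

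**Figure D5:**
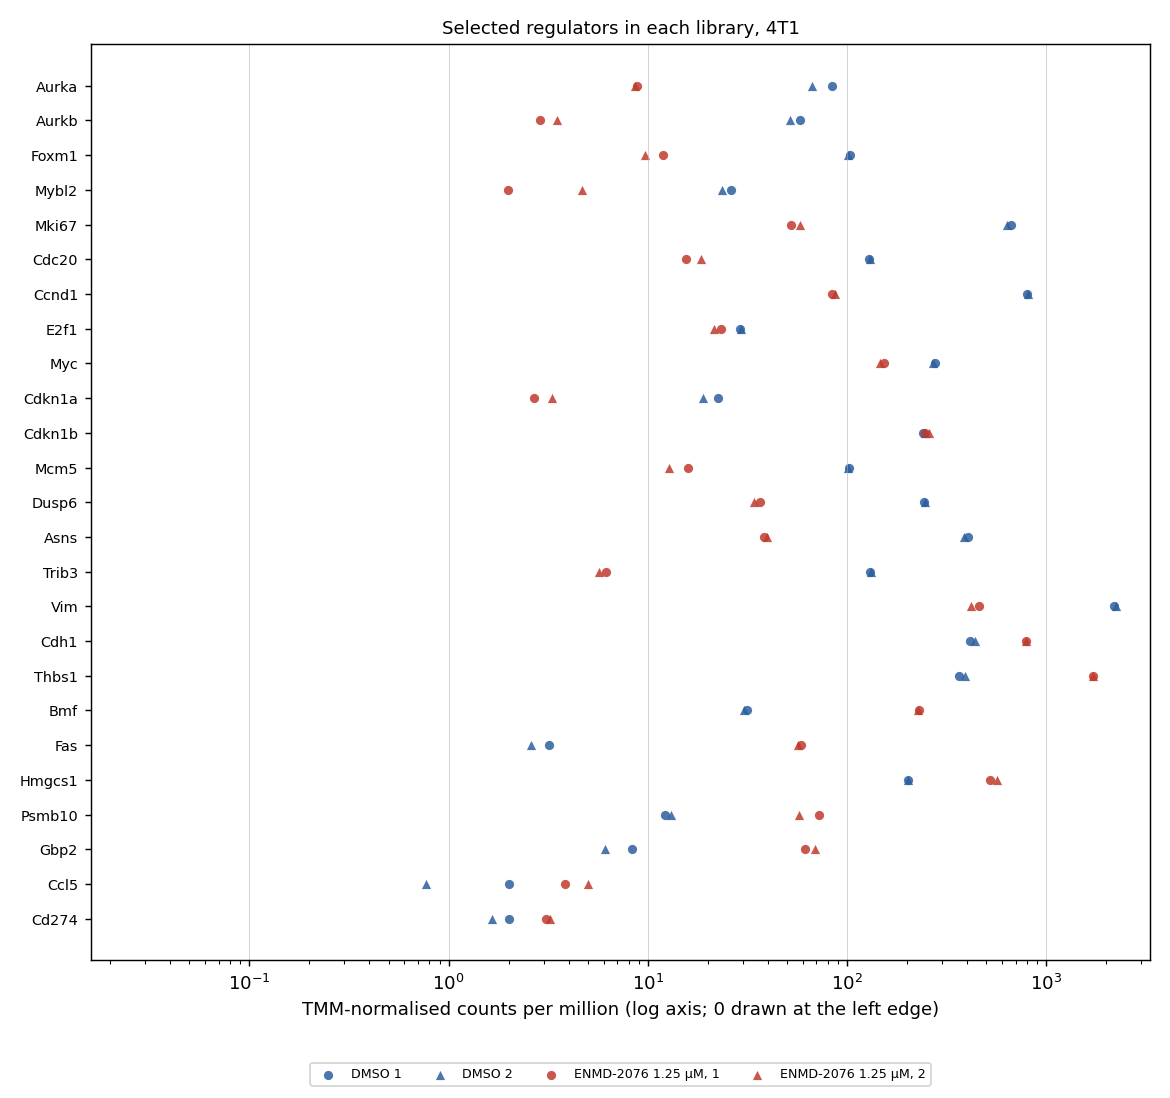
TMM-normalised CPM on a log axis (x) of 25 regulators and list members (y) in each of the 4 libraries, DMSO in blue and ENMD-2076 1.25 µM in red, circles for replicate 1 and triangles for replicate 2. Cdkn1b and Cd274 did not pass the test, and the other 23 genes did.

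The libraries labelled 2.5 µM gave other values, and 10445 of 13437 genes (77.7%) differed between the doses in a fit of the 6 libraries, 5303 higher and 5142 lower at 2.5 µM. Scaled to total counts without TMM factors the split was 3803 higher and 6911 lower. Both doses share the DMSO libraries, and CPM values in this paragraph use the scaling of the 6 libraries. Aurkb was at 52.2 and 46.6 CPM in DMSO, at 2.60 and 3.16 CPM with 1.25 µM and at 34.1 and 35.3 CPM with 2.5 µM (log2 difference 3.55, adjusted p = 1.57e-24). Ccnd1 was at 723 and 726 CPM in DMSO, at 75.5 and 78.5 CPM with 1.25 µM and at 1279 and 1210 CPM with 2.5 µM (log2 difference 4.01, adjusted p = 6.8e-42), and Mcm5 at 92.3 and 90.5 CPM in DMSO, at 14.3 and 11.6 CPM with 1.25 µM and at 529 and 529.6 CPM with 2.5 µM (log2 difference 5.39, adjusted p = 1.2e-42). The libraries labelled 1.25 µM were lowest of the 6 for these genes, and those labelled 2.5 µM highest for the last pair. This order does not follow the labelled doses, and the headers give 10 µM for both pairs, with 1 or 2 before it. Whether the 2 doses are labelled correctly, and whether the pairs differ in dose alone, is in doubt and was not tested. Of 35 kinetochore genes 32 were higher at 2.5 than at 1.25 µM and 3 lower, and the list's median log2 fold change over DMSO was -2.80 at 1.25 and 0.15 at 2.5 µM. For origin and helicase genes these medians were -1.74 and 1.24. Interferon-stimulated genes went the opposite way, with 39 of 43 lower at 2.5 µM and 2 higher, and medians of 0.73 and -1.31. Gbp2 was at 7.51 and 5.47 CPM in DMSO, at 55.7 and 62.4 CPM with 1.25 µM and at 19.3 and 15.8 CPM with 2.5 µM (log2 difference -1.75, adjusted p = 1.92e-15). Trib3 was low at both doses, at 117 and 119 CPM in DMSO, at 5.58 and 5.12 CPM with 1.25 µM and at 2.79 and 4.04 CPM with 2.5 µM (log2 difference -0.67, adjusted p = 0.00196), and Hspa5 at 1012 and 970.4 CPM in DMSO, at 960.5 and 966 CPM with 1.25 µM and at 2095 and 2056 CPM with 2.5 µM (log2 difference 1.11, adjusted p = 3.28e-22). Over all genes tested in this fit the medians were 0 at 1.25 and -0.021 at 2.5 µM. Some markers of other cell types differed between the labels too, where 39.5% of all genes tested were higher and 38.3% lower at 2.5 µM. The fibroblast list was mixed, with 1 of 3 markers tested higher and 1 lower. In this fit 3 of 4 endothelial markers tested were higher at 2.5 than at 1.25 µM and 0 lower (median difference 4.61), as were 3 of 3 gut and liver markers (median difference 3.44), while 3 of 3 haematopoietic markers were lower. The summed level of the 9 endothelial markers listed, without TMM factors, was 6.78 and 5.36 CPM in DMSO, at the lower dose 3.19 and 4.47 CPM, and at the higher dose 8.70 and 11.4 CPM, with Cdh5 and Emcn, 2 of the 9, at 0 reads in all 6 libraries. That of the 12 gut and liver markers was 2.10 and 2.16 CPM in DMSO, at the lower dose 0.624 and 1.49 CPM, and at the higher dose 6.33 and 8.11 CPM, with Hnf4a, Cdx1, Cdx2, Pdx1 and Ttr, 5 of the 12, at 0 reads. The endothelial sum and the gut and liver sum rest on few reads. The endothelial sum held 46 and 138 reads at the lower dose and 180 and 165 at the higher. The gut and liver sum held 9 and 46 reads at the lower dose and 131 and 117 at the higher. The part of these markers in the difference between the doses was not tested.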

How the data were processed

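RNA-seq gene counts of 4 libraries of 4T1 cells were compared. The deposited values are raw read counts per Ensembl gene, 1 table a library, with 38924 genes listed. Per the submitters' processing notes, which give no roles, the build was mm10 and the tools were HTSeq, TopHat, Bowtie, DESeq2 and FastQC 0.11.3. Total RNA was isolated with TRIzol and libraries were made with the NEBNext Ultra kit, per the labels' protocols. For the counting step, annotation and strand setting were not given in the sources used here. Reads of overlapping and antisense genes therefore cannot be told apart. Names and coordinates came from GENCODE M21 (GRCm38), which matched 37607 genes.

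Genes passing edgeR's filterByExpr were tested with its quasi-likelihood test on 2 against 2 libraries (edgeR 4.0.16, R 4.3.3, TMM scaling, Benjamini-Hochberg adjustment, threshold 0.05). Every adjusted p in the text is from this fit unless another is named. The procedure was also run on simulated counts. Those had far fewer changed genes and the same dispersion for all genes, so that run cannot show how the procedure performs on these data. The standard error is the log2 fold change divided by the root of the F statistic, without sign. CPM are counts scaled to the TMM-normalised library size, and their mean is over 2 libraries. Totals were 14418492 to 30866819 counts, and a floor of 3 reads was used where a group had no read. Intervals of read ratios (95%, exact) cover counting error only. The doses were compared in 1 fit of 6 libraries. Members and gene lists were chosen with earlier results of these data known, lists share some genes, and list counts carry no test of the list. Named genes were the 12 largest rises and 12 largest falls with at least 5 CPM in the higher group and no clone or predicted name, any list member, and with library values the largest rise and fall of a list at that level and 11 preset regulators. Krt8, Asns, the dose comparison of Mcm5 and Hspa5 and the genes of the regulator plot were chosen after their values were seen. Alternatives were DESeq2 1.42.0, other scalings and filters, more libraries, a replicate block, leaving out each library and, chosen after seeing the data, thinning to equal depth. The replicates of a group differed by more than sampling noise (chi-square per degree of freedom 4.42 in DMSO and 7.69 with ENMD-2076).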

Additional observations from a re-analysis of the deposited data

How the results depend on the processing

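The count of changed genes (6306) and its split stayed within 1.5 times under each alternative run, from 4991 without DMSO 1 to 7056 with all 12 libraries labelled 4T1. DESeq2 gave 5561, scaling to total counts 6380 (3336 higher, 3044 lower), and thinning to equal depth, chosen after seeing the data, 6086. Leaving out 1 library gave 4991 to 6019 changed genes and 1654 to 1786 changed more than 2-fold, where a group left with 1 library was assumed to vary like the other. Deviations of same-numbered libraries from their group means were not correlated (-0.0059). With 2 libraries a group this is 1 value, and it cannot show whether same-numbered libraries were handled together. With the number as a replicate block 6214 genes changed, 1781 of them more than 2-fold. Between the doses 10258 differed with the block and 9725 to 10598 on leaving out 1 library.

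Of 923 list counts under the alternatives 10 moved by over 1.5 times. Without a filter on low counts 2 keratins fell in place of 4. Leaving out 1 library gave 8 to 14 heat shock genes lower, 5 to 10 mitochondrial ribosomal genes higher, 11 to 17 lysosome genes higher, 7 to 11 chemokines lower, 1 to 3 keratins lower, 3 to 6 checkpoint ligands higher and 4 to 6 glycosylation genes lower (4 without DMSO 2, 7 with all 4 libraries). Medians were set against their spread, the standard deviation over pairs of 1 treated and 1 DMSO library. Of 923 medians under the alternatives, 94 moved by more than that spread and kept their sign. The metalloproteinase median (0.267 with all 4 libraries) ran from 0.151 to 0.875 on leaving out 1 library. In 7 cases, all near 0, the median changed sign and moved by more than the spread. Changes of sign within the spread were not counted. Ranges here are over leaving out 1 library. Histones stood at -0.0839 with at least 1 CPM in 2 libraries and -0.0747 thinned (-0.0562 to 0.0843), and mammary epithelium at -0.00478 with that filter. Collagens stood at 0.203 without DMSO 1 (-0.0408 to 0.203) and mitochondrial ribosomal proteins at 0.0658 without DMSO 2 (-0.0486 to 0.0658). The Bcl2 family stood at -0.0246 without ENMD-2076 replicate 1 (-0.0246 to 0.0507) and epithelial-mesenchymal genes at 0.0689 without ENMD-2076 replicate 2 (-0.1 to 0.0689). The cause was not tested. Among 1931 values of named genes 17 lost and 1 gained the call, and none changed direction. Depth limits the low genes: Angptl4, Mmp12 and Add2 rest on 1 or 2 reads in 1 group.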

Other observations

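Further gene groups, listed with earlier results of these data known, were measured. Clock genes fell in 8 of 16 and rose in 2 (median -0.51). The repressor Ciart stood at 14.5 and 14.2 CPM in DMSO and 1.99 and 2.77 CPM with ENMD-2076, and the core repressors Cry1 (from 25.5 to 8.77 CPM) and Per3 (from 40.7 to 24.9 CPM) and the activator Arntl (from 29.4 to 19.2 CPM) fell, while Clock did not pass (0.02). The rises were of the E-box repressors Bhlhe40, with 57.2 and 51.4 CPM in DMSO and 133 and 129.8 CPM with ENMD-2076, and Bhlhe41 (from 54.1 to 98.99 CPM). Tubulins divided by isotype. The widely expressed Tubb5 (from 1678 to 800.5 CPM), Tuba1b (from 213 to 88.1 CPM) and Tubb6 (from 91.5 to 26.3 CPM) and the nucleating Tubg1 (from 38.8 to 19.5 CPM) fell, and Tubb2a rose, with 25.4 and 30.0 CPM in DMSO and 84.7 and 82.6 CPM with ENMD-2076. In all 8 of 15 fell and 3 rose, and near-identical copies make single tubulin counts uncertain.

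Foxj1, the regulator of motile cilia, stood at 0.542 and 0.768 CPM in DMSO and 21.7 and 21.8 CPM with ENMD-2076 (log2 fold change 5.05, SE 0.277, adjusted p = 4.22e-18). The cilium list as a whole had 10 higher and 7 lower of 32, near the background shares of 24.6% and 25.6%, and Rfx2, a ciliary transcription factor, fell, with 21.5 and 15.8 CPM in DMSO and 7.55 and 8.97 CPM with ENMD-2076. Notch and Wnt genes moved in both directions, with 14 of 31 higher and 6 lower. The ligand Dll4 stood at 13.7 and 15.2 CPM in DMSO and 1.44 and 1.51 CPM with ENMD-2076 and the target Nrarp fell from 36.96 to 5.68 CPM, whereas the ligands Dll1 (from 16.4 to 45.3 CPM) and Jag1 (from 12.3 to 23.2 CPM) rose and Dtx4, a Notch modulator, stood at 68.9 and 68.9 CPM in DMSO and 256 and 232 CPM with ENMD-2076. Among drug metabolism genes the aryl hydrocarbon receptor Ahr rose from 28.1 to 54.9 CPM, its target Cyp1b1 from 23.5 to 80.5 CPM and Aldh3a1, with 3.14 and 3.96 CPM in DMSO and 49.6 and 49.8 CPM with ENMD-2076. The transporter Abcc3 fell, with 47.3 and 57.9 CPM in DMSO and 15.8 and 16.6 CPM with ENMD-2076, as did the efflux pump Abcb1b (from 89.7 to 35.3 CPM). Over that list 6 of 14 rose and 4 fell. Of 81 histone genes 19 were tested, 6 rose and 6 fell. The replacement histone H2afz stood at 293 and 303 CPM in DMSO and 134 and 123 CPM with ENMD-2076 and the linker histone Hist1h1c at 6.01 and 8.21 CPM in DMSO and 29.1 and 20.1 CPM with ENMD-2076, and histone copies are near-identical, so single counts are uncertain. Mammary epithelial genes rose in 8 of 16 and fell in 3, with Elf3 (from 13.1 to 35.6 CPM), Gata3 (from 92.5 to 149 CPM) and the oestrogen receptor Esr1 (from 14.9 to 25.03 CPM) among the rises. Glycosylation and mucin genes had 3 higher and 7 lower of 16 (4 lower without DMSO 2), with the sialyltransferases St3gal1 (0.86) and St3gal4 (0.97) rising beside Mgat3.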
